A study of Mus musculus with 6 samples.

Results

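The genes that write, copy and remove DNA methylation were followed in the mouse embryonic stem cell line E14 after knockdown of Nat10. The choice was by name and role, made with earlier results of these data known. There were 10 genes, among 31641 in the count table, and all 10 had enough reads to be tested. They were Dnmt1 and Uhrf1, which copy methylation to new DNA strands, and Uhrf2, a relative of Uhrf1. Dnmt3a and Dnmt3b, which set methylation on unmethylated DNA, were joined by Dnmt3l, which stimulates them. The rest were Tet1, Tet2 and Tet3, which oxidise methylated cytosine, and Tdg, which excises the oxidised base. The KD group was 3 libraries of Nat10 knockdown cells given doxycycline, and the CON group was 3 libraries of Nat10 wild-type cells without doxycycline. Every library came from the same E14 line and was made from poly(A)-selected RNA. The drug and the knockdown coincide in all 6 libraries, so their effects cannot be told apart. No label says that replicates came from separate cultures. The p-values therefore measure only the spread between these libraries, which may be technical. Nat10 encodes an enzyme that acetylates RNA. The title of the series names it as a regulator of pluripotency and in the 2C state, a state that resembles the early cleavage embryo.

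DNA methylation in mammals sits mostly on the cytosine of CpG, a cytosine followed by a guanine. DNMT1 restores the mark after replication, and UHRF1 brings the enzyme to the half-methylated DNA. DNMT3A and DNMT3B add the mark to new sites, and DNMT3L, which has no catalytic activity of its own, stimulates both. TET enzymes oxidise methylated cytosine stepwise, using 2-oxoglutarate and iron, and TDG cuts out the late oxidation products so that base excision repair can put back plain cytosine. Mouse embryonic stem cells in the naive state have little methylation, with abundant TET1 and TET2, and the level rises as cells move towards the primed state.

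The CpG dinucleotide is also the letter pair that these enzymes act on, and the promoters of the 10 genes themselves differ widely in it. The windows below run from 250 bases before to 50 bases after a RefSeq transcription start (build GRCm38.p6), written 5′ to 3′ in the direction of the gene, with each CpG in capitals. They are shown for the 4 genes that fell at least 2-fold and for the 1 that rose.
Tet2, chr3:133544341-133544640, minus strand: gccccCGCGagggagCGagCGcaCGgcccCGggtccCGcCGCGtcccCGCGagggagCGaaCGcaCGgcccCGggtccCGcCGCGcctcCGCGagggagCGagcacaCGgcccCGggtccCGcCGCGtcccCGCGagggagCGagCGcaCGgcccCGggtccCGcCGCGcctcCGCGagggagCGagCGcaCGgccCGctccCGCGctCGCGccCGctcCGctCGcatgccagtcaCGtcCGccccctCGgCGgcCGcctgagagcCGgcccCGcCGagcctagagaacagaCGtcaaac
Tet1, chr10:62887275-62887574, minus strand: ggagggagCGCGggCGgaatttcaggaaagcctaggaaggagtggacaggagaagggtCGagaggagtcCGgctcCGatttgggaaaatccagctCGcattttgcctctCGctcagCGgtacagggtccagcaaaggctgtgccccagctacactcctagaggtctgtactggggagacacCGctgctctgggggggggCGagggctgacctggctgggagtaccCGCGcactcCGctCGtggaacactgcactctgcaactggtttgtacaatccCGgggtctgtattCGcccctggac
Dnmt3b, chr2:153649199-153649498, plus strand: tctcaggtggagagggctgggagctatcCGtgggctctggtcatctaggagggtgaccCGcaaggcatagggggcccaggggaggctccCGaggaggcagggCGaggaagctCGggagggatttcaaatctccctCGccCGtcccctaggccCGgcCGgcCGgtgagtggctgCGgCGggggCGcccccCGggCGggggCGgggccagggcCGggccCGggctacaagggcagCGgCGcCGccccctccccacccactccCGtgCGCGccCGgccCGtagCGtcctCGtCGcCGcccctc
Dnmt3l, chr10:78042037-78042336, plus strand: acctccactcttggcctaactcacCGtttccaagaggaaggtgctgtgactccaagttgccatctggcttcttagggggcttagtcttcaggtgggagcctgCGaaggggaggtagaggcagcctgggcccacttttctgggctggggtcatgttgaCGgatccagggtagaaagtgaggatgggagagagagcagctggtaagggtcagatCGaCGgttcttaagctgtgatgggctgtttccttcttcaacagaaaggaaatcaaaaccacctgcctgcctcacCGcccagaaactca
Tet3, chr6:83441629-83441928, minus strand: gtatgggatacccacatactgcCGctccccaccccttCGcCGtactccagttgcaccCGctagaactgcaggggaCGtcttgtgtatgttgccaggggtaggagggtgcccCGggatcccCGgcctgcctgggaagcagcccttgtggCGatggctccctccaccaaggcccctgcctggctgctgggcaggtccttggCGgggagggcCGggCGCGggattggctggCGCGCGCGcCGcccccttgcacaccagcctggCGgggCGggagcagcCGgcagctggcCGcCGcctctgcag

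The Tet2 window held 57 CpG, as many as or more than nearly every promoter, since only 0.152% of the 32851 windows of this length in RefSeq held as many. Windows of all genes had a median of 7. Tet3 held 22, Tet1 17 and Dnmt3b 30. Dnmt3l, whose gene has 3 annotated starts, held 6 in the most upstream window shown here and 4 and 3 in the others. The genes that fell most thus included both the CpG-richest and the CpG-poorest windows of the 10 genes, apart from the most upstream Dnmt1 window, which held 2. A search on both strands for TTTCCCGC or TTTGGCGC, letters bound by E2F factors, found 1 match, in a Dnmt1 window. Of all windows, 1.56% held one. Other forms of the E2F site, such as TTTCGCGC, were not searched, so a window without a match may still hold a site. The octamer ATGCAAAT, the letters of POU factors, was in none of the 17 windows of the 10 genes and in 1.74% of all windows. GGGCGG, the letters of SP factors, was in 13 of the 17 windows and in 35.7% of all windows. The windows of all genes were not matched to these 17 for their share of G and C. Windows of neighbouring Dnmt3a starts also overlap. The counts per gene do not show which start was used.

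The libraries held 38859069, 39524273 and 33770755 counts in KD libraries 1 to 3, and 36808429, 39450202 and 35304394 in CON libraries 1 to 3. Levels below are CPM, a count scaled to the depth of its library, with TMM scaling, which corrects for differences in RNA make-up between libraries, given as mean ± SD (n = 3 libraries in each group). The counts of KD-3 stood apart from those of KD-1 and KD-2, with chi-square values per degree of freedom of 16.2 and 12.0, against 2.73 to 5.46 for the other pairs of libraries within a group. Nat10 had 27.4 ± 1.24 CPM in KD and 149 ± 2.93 CPM in CON. All 10 embryonic stem cell markers, Pou5f1 and Sox2 among them, were detected in both groups and fell, with summed levels from 2355 to 2472 CPM in KD and from 6930 to 6972 CPM in CON. Of 5 feeder fibroblast markers tested, 4 rose (80%) and 1 fell (20%). Summed feeder levels ran from 98.1 to 109 CPM in KD and from 65.0 to 66.4 CPM in CON. Twist2 and Col3a1 had at most 3 counts in any library and Postn at most 10, and none of these was tested. Dcn and Lum had no row under these names in the count table. Of the markers tested, 2 of 8 for primitive endoderm rose (25%) and 2 fell (25%), and 2 of 7 for trophoblast rose (28.6%) and 4 fell (57.1%). For neurons 7 of 14 rose (50%) and 4 fell (28.6%). Over all genes tested, 32.2% rose and 30.8% fell. The endoderm shares, the trophoblast rises and the neuron falls did not exceed these shares of all genes. Summed neuron markers ran from 127 to 135 CPM in KD and from 179 to 182 CPM in CON. The part of these shifts in the results below was not tested, and in bulk RNA fewer cells of a type and less RNA per cell cannot be told apart.

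Of the 10 genes, 7 fell in KD, 1 rose and 2 did not pass edgeR's quasi-likelihood test, with p-values adjusted over all 18019 genes tested and a threshold of 0.05. Over all genes tested, 30.8% fell and 32.2% rose, 63.0% in all. The groups did not overlap for 9 of the 10 genes, against 67.1% of all genes. Falls of at least 2-fold that passed the test were seen for 4 of the 10, against 7.11% of all genes. These 4 were Tet2, Dnmt3l, Tet1 and Dnmt3b, and the gene that rose was Tet3. When libraries were scaled by their size alone, called size-only scaling below, the median log2 fold change of all genes was 0.25 in place of 0.018, a shift of 0.23. Under that scaling 3 of the 10 genes rose and 5 fell, against 46.0% and 19.6% of all genes. Because all genes shift together, any log2 fold change between that shift and 0 must turn its sign. Relative to the median of all genes each member kept its place under both scalings: Uhrf2 lay at -0.23, Tdg at -0.21, Dnmt1 at -0.094 and Dnmt3a at -0.090 on the log2 scale. Without KD-3, 8 of the 10 genes fell and Tet3 rose. The log2 fold changes were then -1.69 for Tet2, -1.60 for Dnmt3l and for Tet1, -1.09 for Dnmt3b, -0.57 for Uhrf1 and 0.38 for Tet3.

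**Figure D1:**
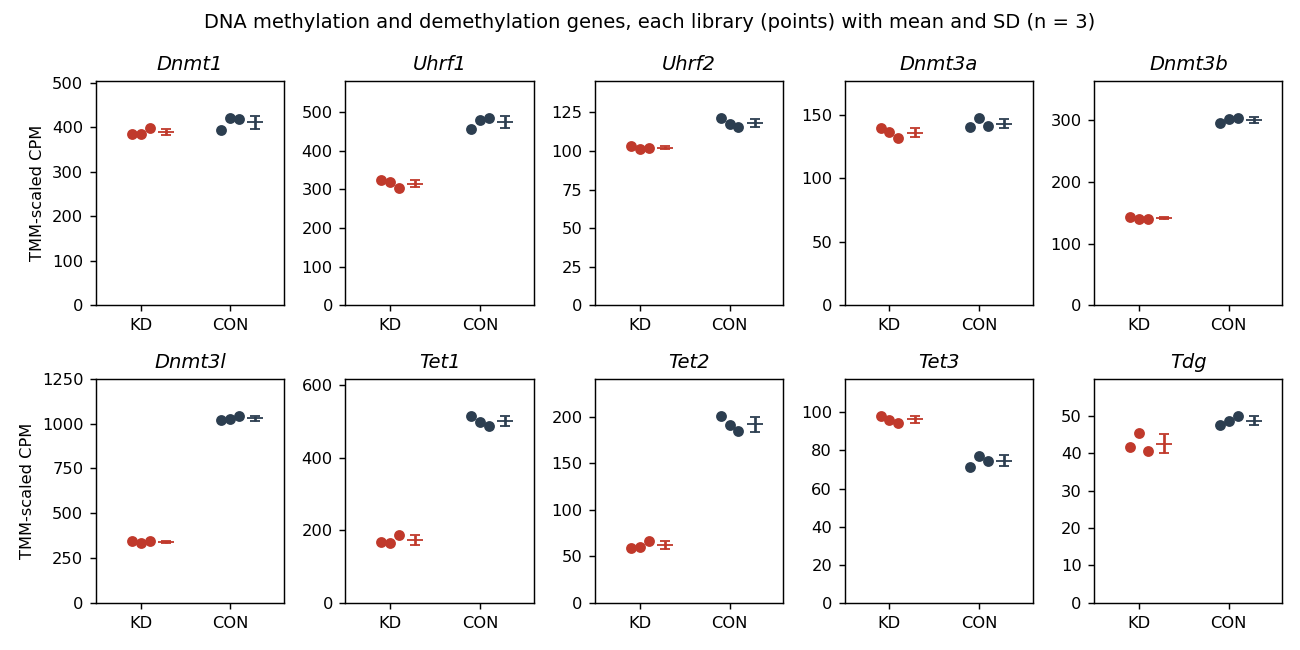
TMM-scaled CPM of the 10 genes (vertical axes, from 0) in each of 3 KD and 3 CON libraries (points), with the mean and SD of each group. The KD points lie below the CON points in 8 panels, above them for Tet3, and overlap with them for Dnmt1, where KD-3 at 398 CPM exceeded CON-1 at 394 CPM.

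Among the genes of maintenance, Uhrf1 fell and Dnmt1, the enzyme it guides, did not pass. Uhrf1 had 323, 318 and 304 CPM in KD libraries 1 to 3, and 455, 480 and 483 CPM in CON libraries 1 to 3. All KD libraries lay well below all CON libraries. The level of Uhrf1 was 315 ± 9.95 CPM in KD against 473 ± 15.4 CPM in CON, which is 1.5-fold lower (log2 fold change -0.59, SE 0.043, edgeR adjusted p = 1.05e-08).

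Dnmt1, the maintenance methyltransferase, had 386, 385 and 398 CPM in the KD libraries and 394, 420 and 418 CPM in the CON libraries. The groups overlapped through CON-1, the lowest control. The log2 fold change was -0.076 (95% interval -0.16 to 0.013, edgeR adjusted p = 0.126). Dnmt1 was called lower without KD-3 (edgeR adjusted p = 0.0118) and without CON-1 (adjusted p = 0.0388), and higher, at a log2 fold change of 0.15, under size-only scaling (adjusted p = 0.00399), which is still below the median of all genes under that scaling, 0.25.

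Uhrf2, a relative of Uhrf1 that does not replace it in maintenance, had 103, 102 and 102 CPM in KD and 121, 118 and 116 CPM in CON. The groups did not overlap, and the fall was 1.16-fold (log2 fold change -0.21, SE 0.045, edgeR adjusted p = 0.000861). Under size-only scaling the value was 0.019 and did not pass (edgeR adjusted p = 0.725). Within a library, where scaling plays no part, the log2 ratio of Uhrf1 to Dnmt1 counts was -0.31 ± 0.073 in KD and 0.20 ± 0.0085 in CON. The log2 ratio of Uhrf2 to Uhrf1 was -1.62 ± 0.041 in KD and -2.0 ± 0.080 in CON. Uhrf1 was thus lower relative to both genes in every KD library than in any CON library.

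Uhrf1 and Dnmt1 act at the replication fork, and genes of S phase moved in the same comparison. Of 33 S-phase genes, 28 fell (84.8%, against 30.8% of all genes) and 2 rose, and their median log2 fold change was -0.57 against 0.018 for all genes. Size-only scaling gave 22 that fell (66.7%, against 19.6%) and 6 that rose. Their summed level ran from 3884 to 3921 CPM in KD and from 6456 to 6584 CPM in CON. Among those that fell were the helicase subunit genes Mcm5, at 174 ± 3.60 CPM in KD and 667 ± 28 CPM in CON, and Mcm2, at 413 ± 17.8 CPM in KD and 902 ± 19.2 CPM in CON. Pcna, the sliding clamp that also holds DNMT1 at the fork, had 161 ± 8.93 CPM in KD and 241 ± 6.08 CPM in CON. Whether the fall of Uhrf1 is part of that of the S-phase genes was not tested.

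The de novo genes separated by member. Dnmt3l had 344, 336 and 346 CPM in KD libraries 1 to 3, and 1018, 1026 and 1042 CPM in CON libraries 1 to 3. Every KD library held about the same level, and the groups were far apart. The fall was 3.01-fold (log2 fold change -1.59, SE 0.038, edgeR adjusted p = 6.19e-14). This was the smallest p-value of the 10 genes and rank 25 among all genes tested.

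Dnmt3b, one of the 2 catalytic enzymes of this step, had 144, 140 and 140 CPM in KD and 295, 303 and 303 CPM in CON. It fell 2.13-fold (log2 fold change -1.09, SE 0.041, edgeR adjusted p = 7.59e-12), with no overlap between groups. Dnmt3a, the other catalytic enzyme, had 139, 137 and 132 CPM in KD and 141, 147 and 142 CPM in CON. The highest KD library lay just under the lowest CON library. The log2 fold change of Dnmt3a was -0.072 and did not pass (95% interval -0.17 to 0.025, edgeR adjusted p = 0.182). Under size-only scaling it was 0.16 and passed as a rise (edgeR adjusted p = 0.00646), which is still below the median of all genes under that scaling.

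The proportions between the de novo genes differed between the groups without overlap. The log2 ratio of Dnmt3a to Dnmt3b counts was -0.053 ± 0.028 in KD and -1.07 ± 0.030 in CON. The log2 ratio of Dnmt3l to Dnmt3b was 1.27 ± 0.024 in KD and 1.78 ± 0.013 in CON, and that of Dnmt3l to Dnmt3a was 1.33 ± 0.052 in KD and 2.85 ± 0.041 in CON. Dnmt3c, a copy of Dnmt3b known from the male germ line, was close to absent, with 13, 3 and 2 counts in the KD libraries and 16, 7 and 11 counts in the CON libraries (edgeR adjusted p = 0.134). Trdmt1, a relative of the DNA methyltransferases that acts on transfer RNA, fell 1.48-fold (edgeR adjusted p = 0.000492).

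The TET genes moved in opposite directions. Tet1 had 167, 164 and 188 CPM in KD libraries 1 to 3, and 514, 499 and 487 CPM in CON libraries 1 to 3. The KD libraries were all well below the CON libraries, with KD-3 the highest of them. The fall was 2.89-fold (log2 fold change -1.53, SE 0.052, edgeR adjusted p = 2.46e-12).

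Tet2 showed the same arrangement, with 59.4, 60.5 and 67.0 CPM in KD and 201, 191 and 185 CPM in CON. Its fall of 3.09-fold was the largest of the 10 genes (log2 fold change -1.63, SE 0.056, edgeR adjusted p = 2.64e-12). Tet1 and Tet2 kept nearly the same proportion to each other, with a log2 ratio of their counts of 1.47 ± 0.029 in KD and 1.38 ± 0.022 in CON, although each KD ratio lay above each CON ratio.

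Tet3, the TET enzyme of the oocyte and zygote, had 98.0, 96.2 and 94.5 CPM in KD and 71.5, 77.2 and 74.6 CPM in CON. All KD libraries lay above all CON libraries. Tet3 rose 1.29-fold (log2 fold change 0.37, SE 0.050, edgeR adjusted p = 9.93e-06), and under size-only scaling its log2 fold change was 0.60, or 0.35 above the median of all genes. The log2 ratio of Tet3 to Tet1 counts was -0.84 ± 0.13 in KD and -2.75 ± 0.085 in CON, a difference of 1.91 and the largest of the 8 pairs compared.

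**Figure D2:**
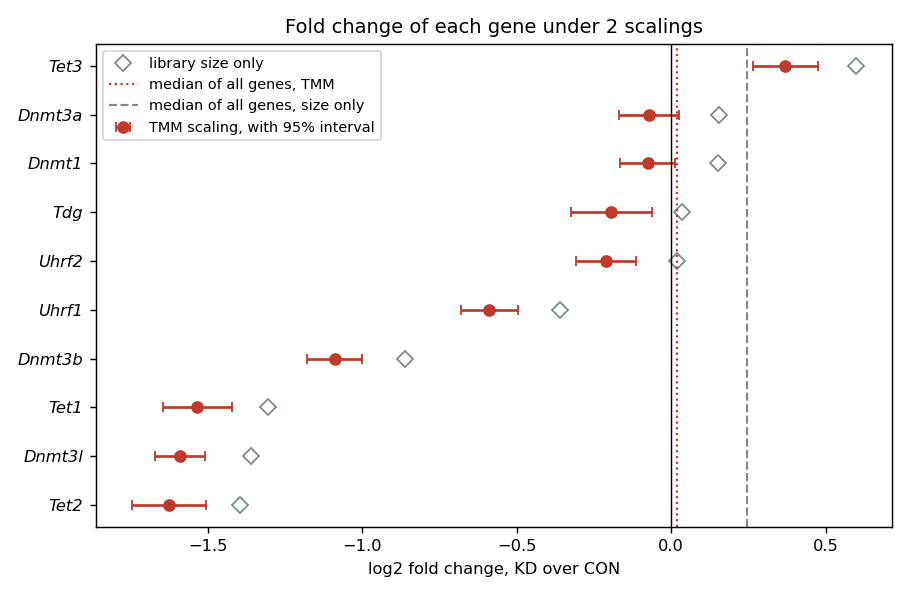
Log2 fold change of KD over CON for each of the 10 genes, with TMM scaling (filled circles, 95% interval) and under size-only scaling (open diamonds); vertical lines mark the median of all genes under each scaling and 0. Tet2, Dnmt3l, Tet1, Dnmt3b and Uhrf1 lie below 0 and Tet3 above 0 under both, while Uhrf2, Tdg, Dnmt1 and Dnmt3a change sign.

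Tdg, the glycosylase that removes the late oxidation products, was only slightly lower. Its levels were 41.7, 45.4 and 40.5 CPM in KD and 47.5, 48.6 and 49.9 CPM in CON. The groups did not overlap, and the fall was 1.14-fold (log2 fold change -0.19, SE 0.061, edgeR adjusted p = 0.0122). It did not pass without CON-3 (edgeR adjusted p = 0.0538) or under size-only scaling, where the log2 fold change was 0.035 (adjusted p = 0.635). The log2 ratio of Tdg to Tet1 counts within a library was -2.02 ± 0.18 in KD and -3.36 ± 0.073 in CON. The level of Tdg is also less certain than that of the other genes, because 29.4% of the 50-base words of its transcripts also occur in Tdg-ps, 15.8% in Gm9855 and 15.0% in Gm5597. Gm9855 held 1101, 1206 and 1163 counts in KD and 1130, 1337 and 1175 in CON, and fell as well (edgeR adjusted p = 0.00334).

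Each of the 8 pairs had ratios that did not overlap between the groups. The exact two-sided permutation test gave p = 0.1 for each pair, adjusted and unadjusted, which is the smallest that 3 against 3 libraries allow, so these differences could not pass at 0.05.

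Levels of different genes were compared per length, with the FPKM values deposited by the authors, which carry no TMM factor. In KD the order was Dnmt3l at 124 ± 1.89 FPKM, Uhrf1 at 79.9 ± 2.39, Dnmt1 at 57.1 ± 1.17, Dnmt3b at 29.9 ± 0.367, Uhrf2 at 12.9 ± 0.0757, Tet1 at 12.1 ± 0.921, Dnmt3a at 8.85 ± 0.220, Tdg at 8.56 ± 0.512, Tet3 at 6.24 ± 0.0995 and Tet2 at 3.99 ± 0.270. In that order Uhrf2 overlapped with Tet1, and Dnmt3a with Tdg, in their libraries. In CON the order was Dnmt3l at 318 ± 3.13 FPKM, Uhrf1 at 103 ± 3.07, Dnmt3b at 54.3 ± 0.672, Dnmt1 at 51.4 ± 1.71, Tet1 at 29.9 ± 0.876, Uhrf2 at 12.7 ± 0.328, Tet2 at 10.5 ± 0.470, Tdg at 8.36 ± 0.183, Dnmt3a at 7.94 ± 0.192 and Tet3 at 4.12 ± 0.15. In CON no neighbours overlapped. Dnmt3l led and Uhrf1 followed in both groups. Tet2 stood below Tet3 in KD and above it in CON, and Dnmt1 stood above Dnmt3b in KD and below it in CON.

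Shares within a family put the same values on a scale that does not depend on how libraries are scaled. Of the summed FPKM of the TET genes, Tet3 made up 29.1, 28.9 and 26.0% in KD libraries 1 to 3, against 8.66, 9.59 and 9.52% in CON libraries 1 to 3. Tet1 made up 54.1 ± 1.42% in KD and 67.1 ± 0.181% in CON, and Tet2 made up 17.9 ± 0.406% in KD and 23.6 ± 0.394% in CON. Tet1 thus remained the most abundant TET transcript per length in every library. Of the DNMT3 genes, Dnmt3l made up 76.1 ± 0.383% in KD and 83.6 ± 0.154% in CON, Dnmt3b 18.4 ± 0.219% in KD and 14.3 ± 0.104% in CON, and Dnmt3a 5.45 ± 0.166% in KD and 2.09 ± 0.0555% in CON. Of the 3 catalytic methyltransferases, Dnmt1 made up 59.6 ± 0.760% in KD and 45.2 ± 0.520% in CON. The lengths are those of all annotated exons of a gene, 16642 bases for Dnmt3a and 2988 for Dnmt3l, so a gene with long unused exons has its level understated.

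**Figure D3:**
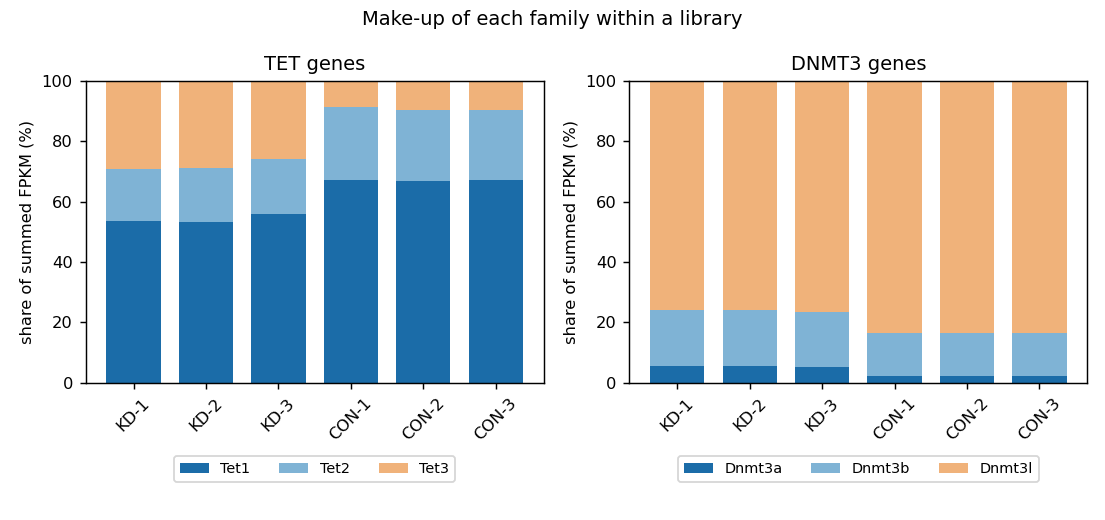
Share of each gene (percent of the summed FPKM of its family) in each of 3 KD and 3 CON libraries, for the TET genes and the DNMT3 genes. Tet3 makes up 26.0 to 29.1% of the TET sum in KD and 8.66 to 9.59% in CON.

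Genes with the nearest pattern over the 6 libraries were sought for Tet2 and Tet3, the members with the largest fall and the largest rise. Among 9769 named genes of at least 10 CPM, the nearest to Tet2, by root mean square distance of gene-centred log2 CPM, was Rbpj (distance 0.015), the DNA-binding effector of Notch signalling, at 218 ± 14.1 CPM in KD and 675 ± 17.1 CPM in CON. Sgk1, a kinase gene, followed at a distance of 0.030, and then Bmerb1 at 0.037. Nearest to Tet3 were Igf1r, the receptor of insulin-like growth factor (distance 0.010), Hilpda at 0.017 and Tmem63b at 0.019. The measure is a description over 6 libraries in 2 groups. It is set mostly by the fold change between the groups, which for Rbpj was a fall of 3.10-fold. Likeness beyond a similar fold change was not tested.

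Genes for proteins that recruit, hold back or steer the methylation enzymes mostly fell. Of 24 genes tested, 15 fell (62.5%, against 30.8% of all genes) and 4 rose. Their median log2 fold change was -0.31 against 0.018 for all genes. These counts include Trdmt1, which fell, and Dnmt3c, which did not pass, both described above and neither a regulator of this kind. Under size-only scaling the counts were 10 that fell (41.7%, against 19.6%) and 7 that rose. Zfp57, which protects methylation at imprinted genes, had 203 ± 7.69 CPM in KD and 488 ± 4.10 CPM in CON. Its corepressor Trim28 had 917 ± 43.4 CPM in KD and 2117 ± 62.3 CPM in CON. Hells, a remodeller that opens chromatin for methylation, had 135 ± 15.4 CPM in KD and 335 ± 17.6 CPM in CON, and its activator Cdca7 had 64.5 ± 2.64 CPM in KD and 120 ± 3.45 CPM in CON. Prdm14, which represses Dnmt3b and Dnmt3l in mouse stem cells, fell together with them, to 11.3 ± 1.23 CPM in KD against 32.8 ± 0.982 CPM in CON (edgeR adjusted p = 5.86e-10).

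Regulators that act on the UHRF1 protein moved both ways. Dppa3, which removes UHRF1 from chromatin, rose to 2.70 ± 0.292 CPM in KD, against 1.51 ± 0.231 CPM in CON (edgeR adjusted p = 0.00175). Usp7, a deubiquitinase that stabilises UHRF1 and DNMT1, had 322 ± 21.3 CPM in KD and 408 ± 11.2 CPM in CON (edgeR adjusted p = 1.82e-05), and did not pass under size-only scaling (adjusted p = 0.0576). Ctcfl, the germline relative of Ctcf, rose to 13.0 ± 1.68 CPM in KD against 3.35 ± 0.429 CPM in CON. The other 2 that rose were Ehmt1 (log2 fold change 0.18), a histone methyltransferase gene, and Cdca7l (0.26).

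Of 10 genes from the families of methylated CpG readers, 5 rose (50%, against 32.2% of all genes) and 2 fell (20%, against 30.8%). Their median log2 fold change was 0.19. The list goes by family, so it also holds relatives that may not read methylated CpG, such as Mbd3, Mbd5 and Mbd6. Zbtb4, a zinc finger reader, had 24.4 ± 2.27 CPM in KD and 9.95 ± 0.799 CPM in CON, and Mbd2, which recruits the NuRD complex, had 63.4 ± 1.95 CPM in KD and 36.8 ± 3.43 CPM in CON. Mbd5 and Mbd1 rose as well, with log2 fold changes of 0.67 and 0.37. Those that fell were Mbd3 (log2 fold change -0.21) and Mbd4 (-0.22), a glycosylase for mismatched thymine, and neither fell under size-only scaling. With that scaling 6 of the 10 genes rose (60%, against 46.0% of all genes) and 0 fell (against 19.6%).

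Of 22 genes of base excision repair and related demethylation factors, 9 fell (40.9%, against 30.8% of all genes) and 3 rose (13.6%, against 32.2%), and their median log2 fold change was -0.093. Size-only scaling gave 8 that fell (36.4%, against 19.6%) and 9 that rose (40.9%, against 46.0%). Hmces, which binds abasic sites, had 56.9 ± 1.35 CPM in KD and 139 ± 2.69 CPM in CON. The uracil glycosylase gene Ung had 69.8 ± 5.23 CPM in KD and 183 ± 4.0 CPM in CON, and Parp1 had 607 ± 8.58 CPM in KD and 1009 ± 24.2 CPM in CON. Of the Gadd45 genes, proposed partners of TDG, Gadd45a fell to 34.5 ± 1.22 CPM in KD against 78.7 ± 1.53 CPM in CON, while Gadd45g rose to 35.8 ± 3.24 CPM in KD against 13.7 ± 1.21 CPM in CON. Gadd45b, the other member, had a log2 fold change of 0.11 and did not pass (edgeR adjusted p = 0.160), though it passed as higher under size-only scaling. Neil1, a glycosylase that can act after TDG, rose to 22 ± 1.85 CPM in KD against 12.3 ± 2.25 CPM in CON.

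Of 18 genes of the supply and use of the methyl donor S-adenosylmethionine, folate enzymes included, 14 fell (77.8%, against 30.8% of all genes) and 1 rose. Their median log2 fold change was -0.36. The list does not separate genes that supply the donor from those that use it, such as Amd1. Under size-only scaling the counts were 9 that fell (50%, against 19.6%) and 5 that rose. The largest falls were those of folate enzymes, with Mthfd2 at 52.9 ± 2.27 CPM in KD and 416 ± 3.82 CPM in CON and Shmt2 at 132 ± 12.0 CPM in KD and 554 ± 17.6 CPM in CON. Mat2a, which makes S-adenosylmethionine, had 148 ± 7.52 CPM in KD and 162 ± 10.1 CPM in CON (edgeR adjusted p = 0.0411). The Mat2a libraries of the groups overlapped, and under size-only scaling its log2 fold change was 0.094 and did not pass (edgeR adjusted p = 0.146). The gene that rose was Adk, adenosine kinase, at 37.6 ± 1.11 CPM in KD and 24.0 ± 2.66 CPM in CON.

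Of 19 genes around 2-oxoglutarate, the cosubstrate of the TET enzymes, 10 fell (52.6%, against 30.8% of all genes) and 3 rose (15.8%, against 32.2%). Their median log2 fold change was -0.16. The list does not separate genes that make 2-oxoglutarate from those that use it, and it also holds genes that do neither, such as Sdha and Fh1. Size-only scaling gave 4 that fell (21.1%, against 19.6%) and 9 that rose (47.4%, against 46.0%), shares close to those of all genes. Psat1, a serine synthesis enzyme that yields 2-oxoglutarate, had 91.2 ± 1.15 CPM in KD and 463 ± 3.39 CPM in CON. Ogdh, which consumes it, had 145 ± 1.94 CPM in KD and 221 ± 4.81 CPM in CON. Idh1, which makes it in the cytosol, rose to 90.8 ± 5.68 CPM in KD against 63.2 ± 1.55 CPM in CON.

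Germline genes known to be held silent by promoter methylation rose in 17 of 23 cases (73.9%, against 32.2% of all genes) and fell in 1. Their median log2 fold change was 0.76. They were not all silent in CON, where their summed level ran from 596 to 603 CPM, against 999 to 1077 CPM in KD. Under size-only scaling the counts were 19 that rose (82.6%, against 46.0%) and 1 that fell. Tuba3a, a testis tubulin gene, had 195 ± 5.02 CPM in KD and 77.9 ± 5.86 CPM in CON. The RNA helicase gene Ddx4 had 81.7 ± 9.19 CPM in KD and 26.5 ± 2.29 CPM in CON, and Slc25a31, a germline ADP/ATP carrier gene, had 48.7 ± 3.29 CPM in KD and 16.8 ± 1.29 CPM in CON. Taf7l had 66.6 ± 4.73 CPM in KD and 27.6 ± 1.94 CPM in CON. Asz1 fell, to 9.94 ± 0.886 CPM in KD against 14.0 ± 0.943 CPM in CON. Methylation itself was not measured in these libraries, so its part in these levels was not tested.

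Imprinted genes, whose expression depends on methylation inherited from 1 parent, moved both ways. Of 22 tested, 6 rose (27.3%, against 32.2% of all genes) and 9 fell (40.9%, against 30.8%), and their median log2 fold change was -0.0041. Under size-only scaling 11 rose (50%, against 46.0%) and 8 fell (36.4%, against 19.6%). The share that rose was close to that of all genes under both scalings. Ndn had 57.6 ± 5.27 CPM in KD and 15.4 ± 1.64 CPM in CON. Grb10 had 25.1 ± 0.808 CPM in KD and 103 ± 3.18 CPM in CON. The noncoding RNA gene Meg3 had 255 ± 17.2 CPM in KD and 407 ± 2.17 CPM in CON, and its neighbour Rian had 267 ± 18.6 CPM in KD and 382 ± 6.14 CPM in CON. These counts do not separate the alleles.

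**Figure D4:**
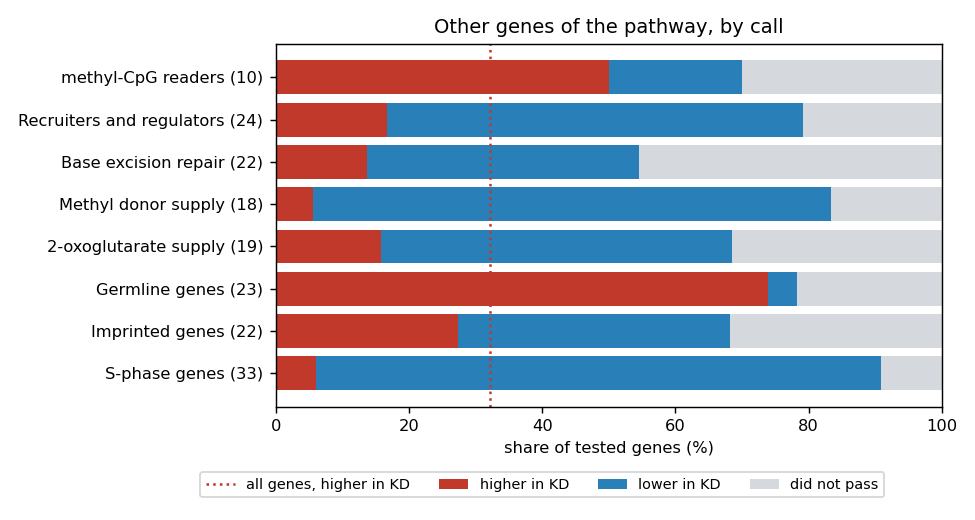
Share of tested genes (percent) of 8 gene lists that rose, fell or did not pass between KD and CON, with the number tested in brackets; the dotted line marks the 32.2% of all genes that rose. Germline genes have the largest share of rises and S-phase genes the largest share of falls among these lists.

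The members lie on 8 chromosomes, with Tet1 (10:62804570-62908996), Dnmt3l (10:78041947-78063622) and Tdg (10:82629828-82650799) on chromosome 10 (GRCm38, GENCODE M21). All 10 genes share some 50-base words with other genes, so reads could be shared. The largest shares with any single gene, outside Tdg, are given here. Dnmt3b shares 9.81% of its 50-base words with Dnmt3c, and Uhrf1 shares 14.7% with Gm5648, which held 7 to 12 counts in KD and 8 to 17 in CON. The next largest was 0.713%, between Uhrf1 and Gm15953. The strand setting of the counting is not given, so reads over shared exons cannot be told apart. Dnmt3l shares 67 exonic bases with Aire on the opposite strand, which held 2678, 2724 and 2043 counts in KD and 4327, 4839 and 4188 in CON, and Tdg shares 367 with Glt8d2, which held 10 to 23 counts in any library. In the authors' deposited table, 8 of the 10 genes had an adjusted p under 0.05 and Dnmt1 and Dnmt3a did not, with adjusted p-values of 0.151 and 0.255.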

How the data were processed

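RNA from 3 KD and 3 CON libraries was analysed. Per the submitters' processing notes, FastQC 0.11.9, STAR 2.5.3a, featureCounts and build mm10 were used; the annotation, strand setting and handling of multi-mapped reads were not given in the sources used here. Raw counts per gene were deposited by the authors, as were FPKM values that the authors made from them with one length per gene, equal to its merged GENCODE M21 exons for the 10 genes. The deposited log2 fold change is CON over KD, and the authors' adjusted p-value comes from an unnamed test. Columns were matched by treatment and number. Of counts from 1 to 20, 70.0 to 71.7% were even, as when both mates of a pair are counted, so counting error is larger than the counts show. Each count equalled between 0.0253 and 0.0296 CPM, before the TMM factor.

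Counts were tested in R 4.3.3 with edgeR 4.0.16: filterByExpr (18019 genes), TMM (factors 1.08 in KD and 0.922 to 0.926 in CON), robust quasi-likelihood F-test, Benjamini-Hochberg over all genes, threshold 0.05. The SE is the log2 fold change over the square root of F. Log2 CPM used a prior count of 2. DESeq2 1.42.0 was one alternative. Date-like symbols (26) were restored from the gene identifier. The members and lists were chosen with earlier results of these data known, so list counts carry no test. Named genes were the 10 members, Nat10, Dnmt3c, Trdmt1, some named regulators and up to 4 genes per list and direction by smallest p; not all are described. Mat2a, Gadd45b, Pcna and the copies and neighbours of members were chosen after their values were seen. Libraries of a group were compared by a chi-square test of their counts, and no pair was identical.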

Additional observations from a re-analysis of the deposited data

How the results depend on the processing

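Uhrf1, Dnmt3b, Dnmt3l, Tet1, Tet2 and Tet3 kept their direction and passed in all 12 alternatives, with log2 fold changes from -0.63 to -0.36, -1.11 to -0.86, -1.61 to -1.36, -1.60 to -1.30, -1.69 to -1.40 and 0.33 to 0.60. With libraries scaled by size only, Dnmt1 (0.15), Dnmt3a (0.16), Uhrf2 (0.019) and Tdg (0.035) changed sign, 3 members rose in place of 1, and 3535 genes fell in place of 5543. That scaling also gave 0 lower genes in the reader list and 7 higher in the recruiter list. It gave 9 higher repair genes, 5 higher and 9 lower methyl donor genes, and 9 higher and 4 lower 2-oxoglutarate genes. Under it 11 imprinted and 6 S-phase genes were higher. Size-only scaling leaves out the TMM factor and so shifts all genes together, by 0.23 at the median. The pair ratios are the same by construction with FPKM or with a replicate block. Without KD-3 the difference for Uhrf1 over Dnmt1 was -0.47 in place of -0.51, and that for Tdg over Tet1 was 1.43 in place of 1.34. The replicate numbers did not pair the libraries, with correlations of deviations of -0.061, 0.015 and -0.039, and the fit with a replicate block called 10906 genes in place of 11344, with 7 members lower and 1 higher as before. That fit gave 12 lower methyl donor genes in place of 14 and 27 lower S-phase genes in place of 28. The lists were also counted without KD-3, chosen after seeing the data: 2 germline genes were then lower in place of 1, and the other list counts stayed within 1.5 times. Leaving out each library in turn gave from 10424 to 11806 genes called, from 6 to 8 members lower and 1 higher. Dnmt1 passed as lower without KD-3 (-0.098) and without CON-1 (-0.12), and Tdg did not pass without CON-3 (-0.18, edgeR adjusted p = 0.0538).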
